A study of Homo sapiens with 8 samples.

Results

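Expression of 9 genes of the MHC class I antigen presentation pathway was measured in the neuroblastoma cell line CHP212. The genes were taken by name from the deposited gene table, which holds 25369 genes: the heavy chains HLA-B, HLA-C and HLA-E, their shared light chain B2M, the peptide transporter subunits TAP1 and TAP2, the immunoproteasome subunits PSMB8 and PSMB9, and the transcriptional activator NLRC5. The rule uses gene names alone, although the list was drawn up with earlier results of these data known, and it is not a full catalogue of the pathway. Poly(A)-enriched, strand-specific RNA-seq had been performed on 8 libraries in 4 groups of 2: FAM193A KO cells given 10 uM Nutlin-3a for 12 h, FAM193A KO cells given 0.2% DMSO, WT cells given 10 uM Nutlin-3a for 12 h, and WT cells given 0.2% DMSO. Nutlin-3a blocks the binding of MDM2 to p53 and so stabilises p53, and DMSO is its vehicle. All groups share the CHP212 background, the DMEM:F12 medium and the serum, and the series describes the replicates of a group as independent. The labels name 1 KO genotype and do not say how it was made or whether it is a single clone, so an effect of the edit and a difference between lines cannot be told apart.

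MHC class I molecules display peptides from inside the cell to CD8 T cells. Proteasomes, in a modified form when they carry the immunoproteasome subunits, cut proteins into peptides, the TAP transporter carries the peptides into the endoplasmic reticulum, and a heavy chain paired with B2M binds them and travels to the surface. NLRC5 and interferon-regulated factors activate many of these genes together. Neuroblastoma cells are known for low surface class I.

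Promoter sequences are shown for 4 members because they separate in the data: TAP1 and HLA-B rose several-fold with Nutlin-3a, whereas PSMB9, whose start site lies 488 bases from that of TAP1 on the opposite strand, fell, and HLA-C moved little. Each sequence is the RefSeq window on GRCh38.p14 from 250 bases before to 50 bases after an annotated start site, read 5′ to 3′ on the strand of the gene. It is reference sequence and not that of the CHP212 alleles. Capitals mark matches on either strand to an IRF element (GAAANNGAA), a GAS element (TTCNNNGAA), an NF-kB motif or a p53 half-site.
TAP1, chr6:32853655-32853954, minus strand: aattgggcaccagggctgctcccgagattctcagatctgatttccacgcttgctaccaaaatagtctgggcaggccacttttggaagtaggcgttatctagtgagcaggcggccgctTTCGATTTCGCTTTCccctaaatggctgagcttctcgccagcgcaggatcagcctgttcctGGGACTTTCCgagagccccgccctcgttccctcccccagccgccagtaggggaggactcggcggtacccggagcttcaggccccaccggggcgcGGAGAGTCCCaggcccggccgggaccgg
PSMB9, chr6:32853942-32854241, plus strand: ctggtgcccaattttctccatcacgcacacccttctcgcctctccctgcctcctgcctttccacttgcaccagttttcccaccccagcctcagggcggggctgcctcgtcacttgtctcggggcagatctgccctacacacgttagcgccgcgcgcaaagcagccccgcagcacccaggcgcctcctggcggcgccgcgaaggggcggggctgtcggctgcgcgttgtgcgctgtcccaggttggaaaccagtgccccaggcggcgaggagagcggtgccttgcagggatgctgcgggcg
HLA-B, chr6:31357130-31357429, minus strand: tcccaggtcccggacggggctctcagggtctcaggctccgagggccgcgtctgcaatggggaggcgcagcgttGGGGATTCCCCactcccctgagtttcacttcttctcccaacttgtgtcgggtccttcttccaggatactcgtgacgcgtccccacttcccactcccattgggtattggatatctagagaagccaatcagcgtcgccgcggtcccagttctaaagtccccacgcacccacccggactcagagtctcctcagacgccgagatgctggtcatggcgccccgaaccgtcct
HLA-C, chr6:31272043-31272342, minus strand: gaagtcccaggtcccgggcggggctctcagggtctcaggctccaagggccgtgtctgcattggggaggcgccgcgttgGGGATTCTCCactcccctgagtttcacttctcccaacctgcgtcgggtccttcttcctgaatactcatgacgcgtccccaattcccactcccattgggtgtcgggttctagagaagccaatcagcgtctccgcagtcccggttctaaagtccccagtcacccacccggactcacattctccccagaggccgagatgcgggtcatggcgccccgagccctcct
The TAP1 and PSMB9 windows shared 13 bases. The TAP1 window shown held a pair of overlapping IRF elements 133 and 127 bases before the start site and NF-kB motifs 72 bases before and 22 bases after it. The PSMB9 window held no capital. The IRF elements and the NF-kB motif before the TAP1 start site lie between the 2 start sites. They are therefore also upstream of PSMB9, farther than the 250 bases that its window covers. HLA-B held overlapping NF-kB matches 177 and 176 bases before the start site, and HLA-C had a single match 172 bases before. Among all 34943 windows of the same length, 8.1% held the IRF element, 7.66% the GAS element, 11.3% the NF-kB motif and 6.64% the p53 half-site. Windows were available for 7 of the 9 members, not for HLA-E or NLRC5. Of the other members, the windows of B2M held an IRF element pair at 144 and 138 bases and an NF-kB motif at 125 bases before the start site, that of TAP2 an IRF element at 58 bases before it, and 1 of the 2 PSMB8 windows a GAS element at 65 bases and an IRF element at 3 bases before it. A second TAP1 window, at chr6:32852712-32853011, held a GAS element 189 bases before its start site. A p53 half-site was found in none of these windows. Each element was searched as a fixed letter pattern, so a window without a match, as of HLA-B or HLA-C for the IRF element, may still hold a variant. The matches are descriptions of letters in a window and were not tested against the expression values.

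The libraries held 28390405 to 38010075 reads in genes, and all 9 members passed the low-count filter, as did 15879 genes in all. Levels are given as CPM, the reads of a gene scaled to a common library total with TMM factors, and a gene was called changed at an adjusted p under 0.05 in edgeR's quasi-likelihood F test with Benjamini-Hochberg adjustment over the 15879 genes. FAM193A itself had 1548 and 1269 reads in KO Nutlin-3a, 1244 and 1240 in KO DMSO, 1529 and 1238 in WT Nutlin-3a and 1343 and 1138 in WT DMSO libraries, so its transcript was still read in the KO cells (log2 fold change KO over WT under DMSO of -0.33, SE 0.08, adjusted p = 0.000999). A gene-wide read count does not show whether the edit was made. CDKN1A, the p53 target that arrests the cell cycle, was higher with Nutlin-3a by a log2 fold change of 5.12 (SE 0.06) in KO cells and 5.39 (SE 0.06) in WT cells. Its response was lower in KO cells, by a difference of -0.27 (SE 0.07, edgeR adjusted p = 0.00942). MDM2 rose by 3.38 (SE 0.05) in KO cells and 4.61 (SE 0.06) in WT cells. That difference was -1.23 (SE 0.07, adjusted p = 8.2e-10), so the responses to Nutlin-3a were not alike. The 9 neuroblastoma markers examined were read in all 8 libraries, but their differences between KO and WT cells under DMSO ran from -5.54 to 5.90 on the log2 scale, so the KO and WT cells differed widely beyond the class I genes. The T cell markers CD3D and CD3E had no read in any library. In bulk RNA, fewer cells expressing a gene and less RNA per cell cannot be told apart.

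All 9 members were lower in KO cells than in WT cells, under Nutlin-3a and under DMSO alike. With Nutlin-3a the members parted: HLA-B and TAP1 rose in both genotypes, and TAP2, PSMB9 and NLRC5 fell in both. HLA-E rose by 0.43 on the log2 scale in WT cells, B2M fell by 0.28 in KO cells, and HLA-C and PSMB8 moved by no more than 0.16 in either. Under Nutlin-3a, 9 of 9 members were called lower in KO cells and none higher, with a median log2 fold change of -1.28; of all tested genes 30.4% were called lower, 32.7% higher and 63.1% in either direction, with a median of 0.02. Under DMSO, 9 of 9 were again called lower, with a median of -1.36, beside 30.1% of all genes called lower, 31.4% higher and 61.5% either way, with a median of 0.01. In KO cells Nutlin-3a raised 2 members and lowered 4, with a median of -0.09, beside 18.1% of all genes called higher, 20.6% lower and 38.7% either way, with a median of -0.01. In WT cells it raised 5 and lowered 3, with a median of 0.12, beside 29.4% called higher, 29.2% lower and 58.6% either way, with a median of 0.02. The Nutlin-3a response itself differed between the genotypes for 1 member, HLA-B, beside 14.2% of all genes called higher, 13.4% called lower and 27.5% either way. The comparisons share libraries with one another, since each group enters 1 comparison of genotypes and 1 of treatments, and so they are not independent of each other.

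**Figure D1:**
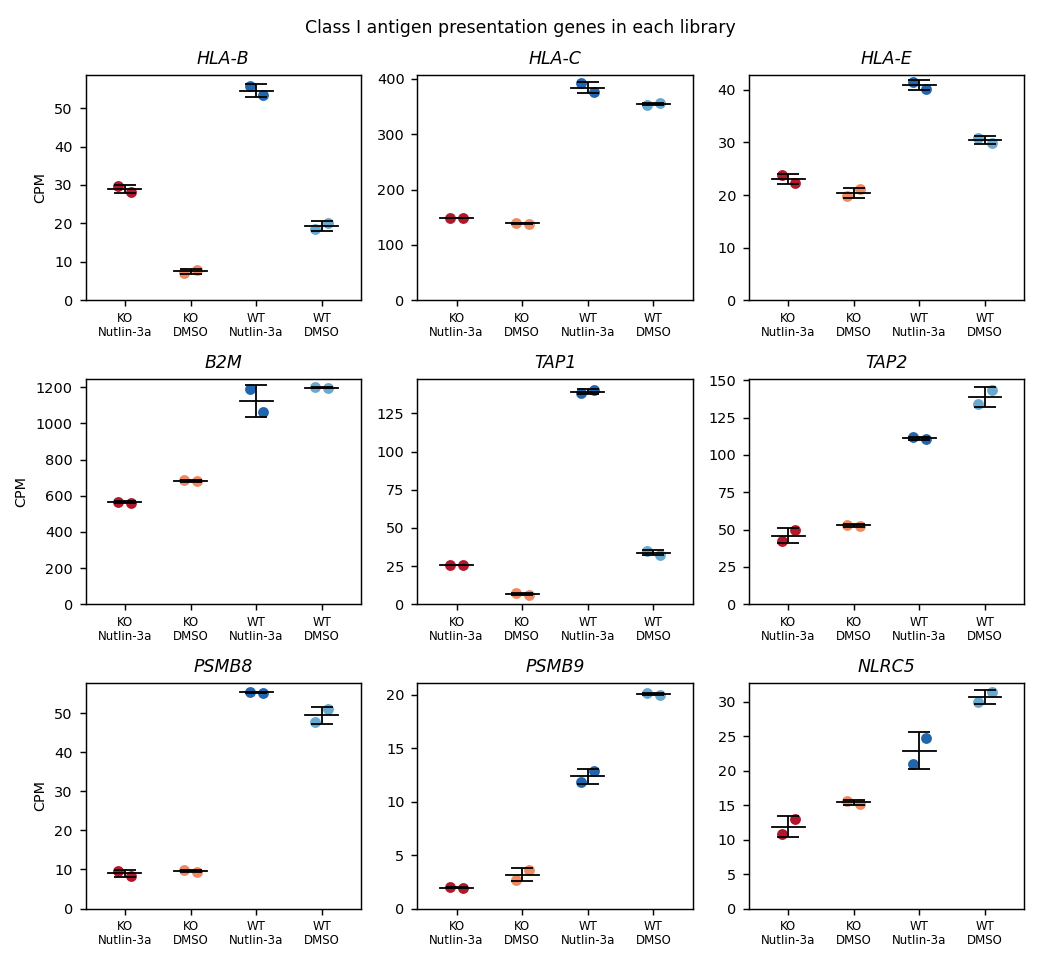
Level of each member in CPM (linear axis from 0) in each of the 8 libraries, with the mean and SD of the 2 libraries of a group as bars. For TAP1 the KO Nutlin-3a libraries, at 26.0 and 25.8 CPM, lie below the WT DMSO libraries, at 35.0 and 32.5 CPM.

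HLA-B and HLA-C encode classical heavy chains, which present peptides to CD8 T cells. HLA-B stood at 29.7 and 28.3 CPM in KO Nutlin-3a libraries, 7.10 and 7.94 in KO DMSO, 55.8 and 53.3 in WT Nutlin-3a, and 18.5 and 20.2 in WT DMSO. The 4 groups did not overlap, and KO cells with Nutlin-3a lay above WT cells with DMSO. Nutlin-3a raised HLA-B 3.85-fold in KO cells (log2 fold change 1.95, SE 0.08, edgeR adjusted p = 1.2e-12) and 2.82-fold in WT cells (1.50, SE 0.07, adjusted p = 2.9e-12). Set against WT cells, KO cells were lower by a log2 fold change of -0.91 (SE 0.07, adjusted p = 1.7e-09) under Nutlin-3a and -1.36 (SE 0.09, adjusted p = 1.9e-10) under DMSO. The Nutlin-3a response was larger in KO cells than in WT cells by 0.45 on the log2 scale (SE 0.11, 95% confidence interval 0.21 to 0.69, adjusted p = 0.00617). That call was lost without the first KO DMSO library (0.37, adjusted p = 0.0588) and in limma-trend on the deposited RPKM values, where it came to 0.40 (adjusted p = 0.0736) with a pseudocount of 0.1 and to 0.06 (adjusted p = 0.684) with a pseudocount of 1. The range of adjusted p over the alternatives was 0.00195 to 0.684.

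HLA-C differed widely by genotype and little by treatment. It had 148 and 149 CPM in KO Nutlin-3a libraries, 140.0 and 138 in KO DMSO, 392 and 377 in WT Nutlin-3a, and 353 and 356 in WT DMSO. KO libraries all lay well below WT libraries, and within a genotype the Nutlin-3a libraries lay just above the DMSO libraries without overlap. KO cells were lower than WT cells 2.59-fold under Nutlin-3a (log2 fold change -1.38, SE 0.04, edgeR adjusted p = 6.1e-15) and 2.55-fold under DMSO (-1.35, SE 0.04, adjusted p = 9.0e-15). The Nutlin-3a effect was 0.09 in KO cells (SE 0.04, adjusted p = 0.122, not called in the fit of all 8 libraries) and 0.12 in WT cells (SE 0.04, adjusted p = 0.0272). The WT call was lost in 7 of 19 alternatives, among them those without the first (adjusted p = 0.0752) or second (0.104) WT DMSO library and without the first (0.0585) or second (0.0577) KO DMSO library. In KO cells it was called in 7 of 19, among them those without the first (0.11, adjusted p = 0.0123) or second (0.09, adjusted p = 0.0413) WT Nutlin-3a library.

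HLA-E encodes a nonclassical heavy chain, the ligand of the NKG2A inhibitory receptor of natural killer cells. Its level was 23.7 and 22.3 CPM in KO Nutlin-3a libraries, 19.7 and 21.1 in KO DMSO, 41.5 and 40.2 in WT Nutlin-3a, and 30.9 and 29.8 in WT DMSO. No pair of groups overlapped, and every KO library was below every WT library. The KO level was lower by a log2 fold change of -0.83 (SE 0.07, edgeR adjusted p = 5.1e-09) under Nutlin-3a and -0.57 (SE 0.07, adjusted p = 1.2e-06) under DMSO, the smallest of the 9 fitted genotype differences in each case. Nutlin-3a raised HLA-E in WT cells by 0.43 (SE 0.07, adjusted p = 2.5e-05). In KO cells the change was 0.17 (SE 0.07, adjusted p = 0.0626), with an interval of 0.02 to 0.32. It was called in 6 of 19 alternatives, among them those without the first (0.19, adjusted p = 0.0236) or second (0.17, adjusted p = 0.0445) WT Nutlin-3a library. 

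B2M encodes the light chain that every classical heavy chain needs to fold and reach the surface. It was the most abundant member, with 567 and 562 CPM in KO Nutlin-3a libraries, 687 and 679 in KO DMSO, 1188 and 1062 in WT Nutlin-3a, and 1201 and 1195 in WT DMSO. KO libraries lay below all WT libraries, and the second WT Nutlin-3a library stood apart from the first. KO cells were lower than WT cells by -0.99 (SE 0.05, edgeR adjusted p = 6.7e-12) under Nutlin-3a and -0.81 (SE 0.05, adjusted p = 1.5e-10) under DMSO, as log2 fold changes. Nutlin-3a lowered B2M in KO cells by -0.28 (SE 0.05, adjusted p = 0.000321). In WT cells the change of -0.09 (SE 0.05, adjusted p = 0.143) was not called, although without the first WT Nutlin-3a library it was -0.15 with an adjusted p of 0.00203.

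**Figure D2:**
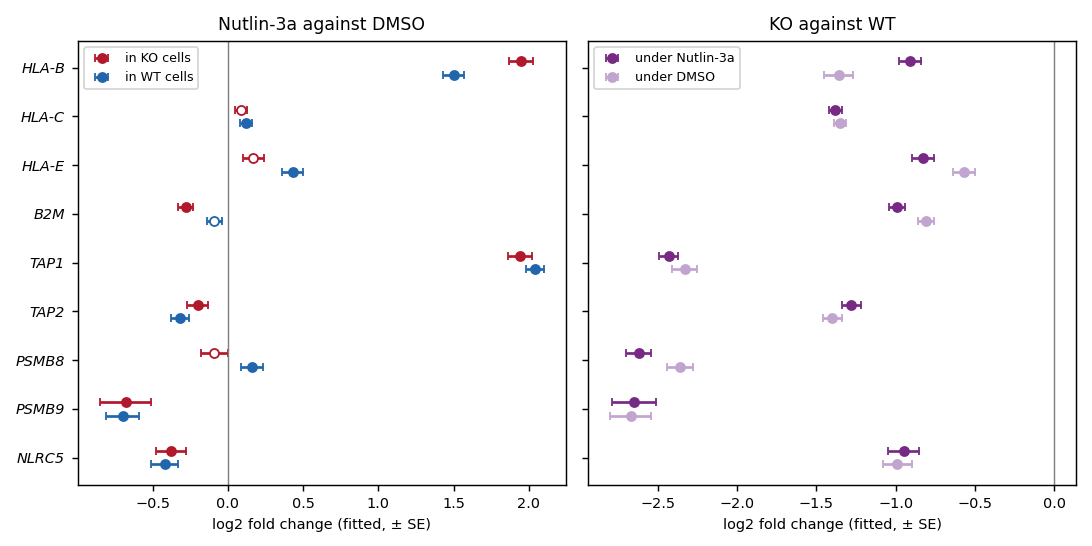
Fitted log2 fold change of each member with its SE as a bar: Nutlin-3a over DMSO on the left, in KO and WT cells, and KO over WT on the right, under Nutlin-3a and DMSO; open circles are values that were not called. HLA-B and TAP1 lie between 1.50 and 2.04 on the left, and all 18 values on the right lie below 0.

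TAP1 and TAP2 form the transporter that moves peptides into the endoplasmic reticulum. TAP1 had 26.0 and 25.8 CPM in KO Nutlin-3a libraries, 7.29 and 6.17 in KO DMSO, 138 and 140.4 in WT Nutlin-3a, and 35.0 and 32.5 in WT DMSO. The groups were far apart, and the KO libraries with Nutlin-3a did not reach the level of WT libraries without it. Nutlin-3a raised TAP1 3.85-fold in KO cells (log2 fold change 1.94, SE 0.08, edgeR adjusted p = 7.3e-13) and 4.12-fold in WT cells (2.04, SE 0.06, adjusted p = 2.3e-15). The responses differed by -0.10 (95% confidence interval -0.32 to 0.12, adjusted p = 0.527), which was not called on the counts. Against WT cells, KO cells were lower 5.38-fold under Nutlin-3a (-2.43, SE 0.06, adjusted p = 2.0e-16) and 5.02-fold under DMSO (-2.33, SE 0.08, adjusted p = 1.4e-14).

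TAP2, the partner subunit, moved the other way with Nutlin-3a. It was at 42.3 and 49.7 CPM in KO Nutlin-3a libraries, 53.4 and 52.2 in KO DMSO, 112 and 110.5 in WT Nutlin-3a, and 134 and 144 in WT DMSO. In each genotype the Nutlin-3a libraries lay below the DMSO libraries, by a narrow margin in KO cells. The log2 fold change with Nutlin-3a was -0.20 in KO cells (SE 0.07, edgeR adjusted p = 0.0206) and -0.32 in WT cells (SE 0.06, adjusted p = 0.000163). The call in KO cells was lost without the first KO Nutlin-3a library (-0.09, adjusted p = 0.389), the first (-0.19, 0.131) or second (-0.22, 0.0773) KO DMSO library, or the first WT DMSO library (-0.18, 0.0524). In limma-trend it was lost in all 3 fits, with values of -0.09 to -0.16 (adjusted p = 0.348 to 0.382), and the WT call was lost with a pseudocount of 0.1 (adjusted p = 0.0508, or 0.0599 with no filter). KO cells were lower than WT cells by -1.28 (SE 0.06, adjusted p = 4.9e-12) under Nutlin-3a and -1.40 (SE 0.06, adjusted p = 1.1e-12) under DMSO.

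PSMB8 and PSMB9 encode catalytic subunits that replace their constitutive counterparts PSMB5 and PSMB6 in the immunoproteasome, and their genotype gaps, like that of TAP1, were wide. PSMB8 had 9.61 and 8.35 CPM in KO Nutlin-3a libraries, 9.78 and 9.44 in KO DMSO, 55.4 and 55.3 in WT Nutlin-3a, and 47.9 and 51.0 in WT DMSO. The KO libraries overlapped across treatments and lay far under the WT libraries. In KO cells PSMB8 was lower 6.14-fold under Nutlin-3a (log2 fold change -2.62, SE 0.08, edgeR adjusted p = 1.8e-15) and 5.14-fold under DMSO (-2.36, SE 0.08, adjusted p = 7.3e-15). The Nutlin-3a effect of -0.09 in KO cells (95% confidence interval -0.28 to 0.10, adjusted p = 0.450) was not called. In WT cells it was 0.16 (SE 0.07, adjusted p = 0.0408), a call lost in 11 of 19 alternatives, with adjusted p up to 0.274. The libraries whose removal ended it were the first (adjusted p = 0.182) and second (0.0551) of WT DMSO, the second of WT Nutlin-3a (0.0670), and the first (0.0601) and second (0.0598) of KO DMSO.

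PSMB9 had the fewest reads of the 9 members and fell with Nutlin-3a in both genotypes. It had 2.01 and 1.92 CPM in KO Nutlin-3a libraries, from 74 and 64 reads, and 2.71 and 3.58 CPM in KO DMSO, from 97 and 138 reads. In WT cells it had 11.9 and 12.9 CPM with Nutlin-3a and 20.1 and 19.98 with DMSO. The 4 groups did not overlap, and the KO libraries rested on few reads. The log2 fold change with Nutlin-3a was -0.68 in KO cells (SE 0.17, edgeR adjusted p = 0.00366) and -0.70 in WT cells (SE 0.11, adjusted p = 1.9e-05). Without the second KO DMSO library the KO value was -0.46 and no longer called (adjusted p = 0.0964). The KO call was also lost in limma-trend with a pseudocount of 1 (-0.15, adjusted p = 0.112) and in the fit with a pseudocount of 0.1 and no filter (-0.48, adjusted p = 0.0621). The KO level was lower 6.27-fold under Nutlin-3a (-2.65, SE 0.14, adjusted p = 1.1e-11) and 6.35-fold under DMSO (-2.67, SE 0.13, adjusted p = 1.6e-12). Under Nutlin-3a the fitted values of PSMB9 and PSMB8 differed by less than their SEs. Over the alternatives the Nutlin-3a value ran from -2.71 to -0.97 for PSMB9 and from -2.72 to -1.54 for PSMB8, with the smallest sizes in limma-trend on RPKM.

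NLRC5 encodes an activator that acts at class I promoters together with the RFX complex. It had 10.8 and 13.0 CPM in KO Nutlin-3a libraries, 15.7 and 15.1 in KO DMSO, 21.03 and 24.8 in WT Nutlin-3a, and 30.0 and 31.4 in WT DMSO. Nutlin-3a libraries lay below DMSO libraries in each genotype, so NLRC5 fell where HLA-B and TAP1 rose. The log2 fold change with Nutlin-3a was -0.38 in KO cells (SE 0.10, edgeR adjusted p = 0.00617) and -0.42 in WT cells (SE 0.09, adjusted p = 0.000698). The KO call was lost without the first KO Nutlin-3a library (-0.25, adjusted p = 0.137) or the first KO DMSO library (-0.36, adjusted p = 0.0544). In limma-trend the KO call was lost in every fit, with values of -0.33 to -0.23 (adjusted p = 0.0560 to 0.0914). In edgeR, NLRC5 was lower in KO cells by -0.95 (SE 0.10, adjusted p = 1.5e-07) under Nutlin-3a and -0.99 (SE 0.09, adjusted p = 4.0e-08) under DMSO.

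Apart from HLA-B, no member passed the threshold for a difference between its Nutlin-3a response in KO cells and that in WT cells, which does not show that the responses were alike. The intervals were widest for PSMB9, at 0.02 on the log2 scale (95% confidence interval -0.43 to 0.47, edgeR adjusted p = 0.964), and NLRC5, at 0.04 (-0.25 to 0.33, adjusted p = 0.850). HLA-C differed by -0.03 (-0.16 to 0.10, adjusted p = 0.800) and TAP2 by 0.12 (-0.07 to 0.31, adjusted p = 0.348). A further 3 members lay near the threshold, all with a lower response in KO cells. HLA-E differed by -0.25 (-0.46 to -0.05, adjusted p = 0.0625), PSMB8 by -0.26 (-0.49 to -0.02, adjusted p = 0.0996) and B2M by -0.18 (-0.34 to -0.03, adjusted p = 0.0686). Without the second WT Nutlin-3a library, HLA-E (-0.28, adjusted p = 0.0429) and B2M (-0.26, adjusted p = 0.000105) were called. In limma-trend on RPKM with a pseudocount of 1, a scale that compresses low values, TAP1 (-0.77, adjusted p = 0.000647) and PSMB9 (0.30, adjusted p = 0.0465) were called.

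TAP1, PSMB9, PSMB8 and TAP2 lie within 1 cluster of chromosome 6, and Nutlin-3a did not move them together. TAP1 rose and PSMB9 fell in both genotypes although their start sites face away from each other across 488 bases, while the genotype difference ran in 1 direction for all 4. In the GENCODE v29 annotation, PSMB9 overlaps TAP1 and PSMB8 on the opposite strand. The antisense RNA PSMB8-AS1, counted under the name TAPSAR1, overlaps all 3 there. Neither the annotation nor the strand setting of the read counting is stated in the labels or headers, so the overlaps may differ there. Reads shared by these genes may have been left uncounted or assigned to either, and their values carry that uncertainty. TAPSAR1 had 40 and 40 reads in KO Nutlin-3a libraries, 39 and 40 in KO DMSO, 166 and 131 in WT Nutlin-3a, and 110 and 119 in WT DMSO. It was lower in KO cells by a log2 fold change of -2.15 (SE 0.20, edgeR adjusted p = 2.6e-08) under Nutlin-3a and -1.87 (SE 0.21, adjusted p = 3.1e-07) under DMSO. HLA-B and HLA-C are close paralogs with many alleles. In GENCODE v29 they also overlap on the same strand, which may not hold in the annotation used for counting. Reads that fit both could be lost or split.

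**Figure D3:**
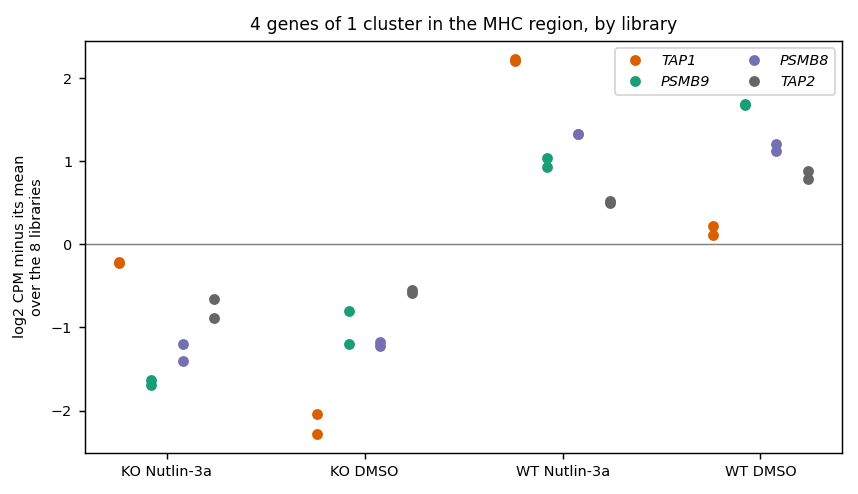
Each point is 1 library, with the log2 CPM of the gene minus its mean over the 8 libraries on the vertical axis. TAP1 is higher in the Nutlin-3a libraries than in the DMSO libraries of its genotype, PSMB9 and TAP2 are lower, and PSMB8 in KO cells overlaps.

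The genes around the pathway were counted by list, beside the shares of all tested genes given above. Among 12 genes of peptide loading and trimming, 10 were lower and 0 higher in KO cells under Nutlin-3a (median -0.73), and 8 were lower and 0 higher under DMSO (median -0.34). ERAP1 and ERAP2, the aminopeptidases that trim peptides in the endoplasmic reticulum, led this list. ERAP2 had 130 and 136 CPM in KO Nutlin-3a, 165 and 168 in KO DMSO, 469 and 476 in WT Nutlin-3a, and 473 and 489 in WT DMSO libraries. Its log2 fold change KO over WT was -1.83 (SE 0.05, edgeR adjusted p = 2.1e-16) under Nutlin-3a and -1.53 (SE 0.05, adjusted p = 2.4e-15) under DMSO, and for ERAP1 the values were -1.48 (SE 0.05) and -1.34 (SE 0.05). The chaperone genes HSPA5 and CALR rose with Nutlin-3a in WT cells, by 0.59 and 0.45, and the responses in KO cells differed from these by -0.56 (SE 0.06, adjusted p = 2.3e-06) and -0.41 (SE 0.07, adjusted p = 0.000222). With Nutlin-3a, 0 of the 12 rose and 5 fell in KO cells, and 4 rose and 1 fell in WT cells.

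All 8 genes of the proteasome list, which holds the constitutive counterparts, the remaining immunoproteasome subunit and the activators, were lower in KO cells under both treatments, with medians of -0.52 under Nutlin-3a and -0.51 under DMSO. POMP, the maturation factor of the proteasome, was lower by a log2 fold change of -1.32 (SE 0.05, edgeR adjusted p = 6.7e-14) under Nutlin-3a and -1.35 (SE 0.05, adjusted p = 4.5e-14) under DMSO. PSMB10, another immunoproteasome subunit, was lower by -1.02 (SE 0.06, adjusted p = 2.8e-11) under DMSO. PSME1 and PSME2, which form an activator cap of the proteasome, were lower by -0.72 and -0.73 under Nutlin-3a. With Nutlin-3a, 4 of the 8 fell and 0 rose in KO cells, and 5 fell and 0 rose in WT cells.

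The regulators were split. Of 28 tested genes of the transcription and interferon list, 7 were higher and 10 lower in KO cells under Nutlin-3a (median 0.04), and 10 were higher and 6 lower under DMSO (median 0.10). IRF1, an interferon-regulated activator of class I genes, was far lower in KO cells. It had 22.2 and 20.2 CPM in KO Nutlin-3a libraries, 26.2 and 26.2 in KO DMSO, 139 and 133 in WT Nutlin-3a, and 109 and 114 in WT DMSO. Its log2 fold change KO over WT was -2.68 (SE 0.06, edgeR adjusted p = 2.1e-17) under Nutlin-3a and -2.09 (SE 0.06, adjusted p = 5.3e-16) under DMSO. STAT3, a cytokine-activated transcription factor, stood at 426 and 424 CPM in KO Nutlin-3a, 299.98 and 289 in KO DMSO, 446 and 475 in WT Nutlin-3a, and 156 and 162 in WT DMSO libraries. It rose with Nutlin-3a by 0.53 (SE 0.05) in KO cells and 1.54 (SE 0.05) in WT cells, a difference of -1.01 (SE 0.07, adjusted p = 7.4e-09). STAT2, which works with IRF9 downstream of type I interferon, had a difference of -0.96 (SE 0.09, adjusted p = 2.7e-07). EZH2, a histone methyltransferase that represses genes, fell by 0.55 in KO cells and by 1.18 in WT cells on the log2 scale. With Nutlin-3a, 5 of the 28 rose and 10 fell in KO cells, and 12 rose and 8 fell in WT cells. Of all tested genes, 18.1% rose and 20.6% fell in KO cells, and 29.4% rose and 29.2% fell in WT cells, so several of these counts lie near the shares of all genes.

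Of 15 genes for other class I-like chains and ligands of natural killer or T cells, 6 had enough reads to be tested. MR1, which presents microbial metabolites, was lower in KO cells by a log2 fold change of -3.57 (SE 0.21, edgeR adjusted p = 4.1e-11) under Nutlin-3a and -3.08 (SE 0.28, adjusted p = 1.9e-08) under DMSO. It rose with Nutlin-3a by 1.14 (SE 0.35, adjusted p = 0.0133) in KO cells and 1.64 (SE 0.17) in WT cells. The KO value was 0.58 without the second KO Nutlin-3a library (adjusted p = 0.282) and 0.87 without the first KO DMSO library (adjusted p = 0.132), neither of them called, and the call was also lost in limma-trend. CD274, the checkpoint ligand PD-L1, was higher in KO cells by 1.16 (SE 0.21, adjusted p = 8.7e-05) under DMSO. The list as a whole had 3 genes higher and 2 lower in KO cells under each treatment, with medians of 0.25 under Nutlin-3a and 0.13 under DMSO. With Nutlin-3a, 2 rose and 0 fell in KO cells, and 5 rose and 1 fell in WT cells.

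MHC class II genes, which present peptides to CD4 T cells, were barely read. The 13 genes summed to 41 and 86 reads in KO Nutlin-3a, 21 and 15 in KO DMSO, 62 and 57 in WT Nutlin-3a, and 60 and 109 in WT DMSO libraries. Of these, 5 were tested. HLA-DOA was called higher with Nutlin-3a in both genotypes, from 9 and 2 reads in KO Nutlin-3a against 0 and 0 in KO DMSO, and from 23 and 28 in WT Nutlin-3a against 2 and 0 in WT DMSO libraries. The KO call was lost without the first (adjusted p = 0.0766) or second (0.0889) KO DMSO library or the first KO Nutlin-3a library (0.197), and in limma-trend, where with a pseudocount of 0.1 the value was 0.09 (0.759). The WT call was lost in limma-trend with the filter, at a pseudocount of 0.1 (0.42, adjusted p = 0.0917) or 1 (0.05, 0.321). The remaining calls on this list, with KO set against WT, were CD74 and HLA-DOB, both lower under DMSO, and HLA-DOA, lower under Nutlin-3a. In the same limma-trend fits that HLA-DOA call was lost (adjusted p = 0.145 and 0.381). With a pseudocount of 1 the DMSO calls of HLA-DOB (adjusted p = 0.0506) and CD74 (0.0505) were lost. CD74 was also called for the difference of the Nutlin-3a responses, from no more than 30 reads in any library. That call was lost without the second WT DMSO (adjusted p = 0.118), first (0.114) or second (0.159) KO DMSO or second KO Nutlin-3a library (2.54, 0.288) and in limma-trend. The CD74 call under DMSO was lost without the second KO DMSO library (-3.72, adjusted p = 0.0619).

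The 45 tested neighbours of the class I genes on chromosome 6 with other roles had medians near 0 between the genotypes. In KO cells 17 were higher and 9 lower under Nutlin-3a, with a median of 0.09, and 15 were higher and 12 lower under DMSO, with a median of -0.01. CLIC1, a chloride channel gene, was lower in KO cells by a log2 fold change of -1.42 under Nutlin-3a and -1.39 under DMSO. With Nutlin-3a, 10 rose and 15 fell in KO cells, and 11 rose and 24 fell in WT cells.

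**Figure D4:**
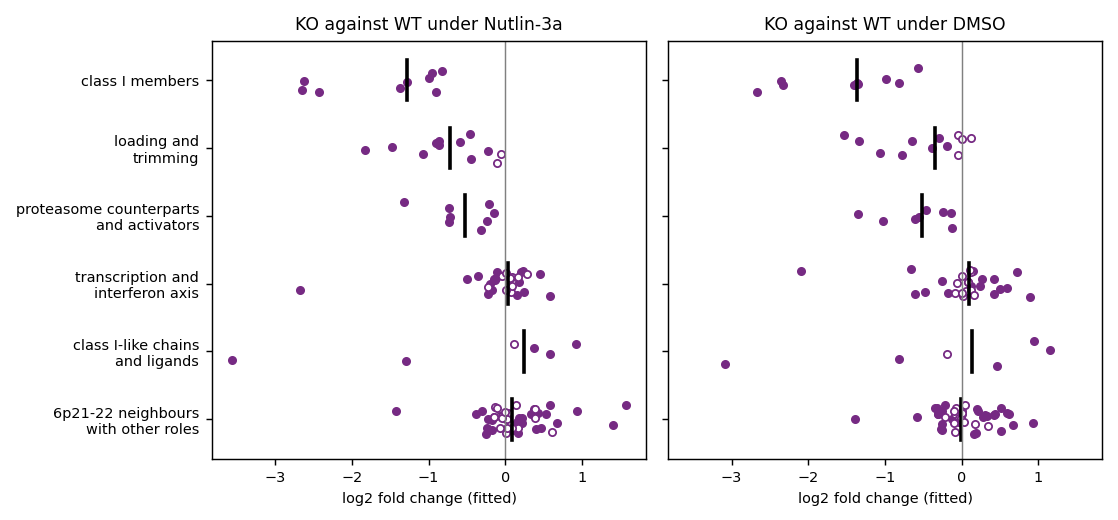
Each point is 1 gene, placed by its fitted log2 fold change KO over WT, under Nutlin-3a on the left and DMSO on the right; open circles are genes that were not called, and bars are list medians. The class I members have medians of -1.28 and -1.36, beside 0.09 and -0.01 for their neighbours on chromosome 6.

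The pattern of each member over the 8 libraries was set against those of all other tested genes by the root mean square difference of centred log2 CPM. For TAP1 the nearest gene outside the list was ITGA3 at 0.21, and the nearest member was HLA-B at 0.66, which ranked 98 of 15878 genes. For HLA-B the nearest were APOBEC3C and AKR1C1, each at 0.20. PSMB8 lay nearest to IRF1, at 0.10, followed by SSFA2 at 0.11 and COL4A1 at 0.12. PSMB9 lay nearest to MSX1 at 0.15, and its nearest member was PSMB8 at 0.39, ranked 49. HLA-C had WIPI1 and SEPT9 at 0.04, B2M had ETS2 and DSTN at 0.05, and HLA-E had MTSS1L, TPT1 and MEF2A at 0.05. TAP2 had ANXA11 and GTF3A at 0.07 and CLIC1, a neighbour on chromosome 6, at 0.09. NLRC5 had RPS6KA3, NES and PDE11A at 0.08. The nearest other member ranked 526 for HLA-B, 132 for HLA-C, 1355 for HLA-E and 247 for B2M. It ranked 86 for TAP2, 151 for PSMB8 and 78 for NLRC5. These distances describe 8 libraries that share their totals and their 4 groups, and many genes follow the same group means.

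Levels were also compared between members per length of transcript. The deposited RPKM values could not serve for this, because the gene length they imply for the 7 members on chromosome 6 was 5.95 to 9.15 times the merged exon length in GENCODE v29 (median 7.97). For B2M on chromosome 15 the ratio was 0.42 and for NLRC5 on chromosome 16 it was 0.99. The 45 neighbours on chromosome 6 had a median ratio of 6.39, with 95.6% of them over 3, whereas 14050 genes on other chromosomes had a median of 0.98, with 0.498% over 3. The RPKM values of these 7 members and their neighbours are therefore low relative to other genes, by a factor shared by all libraries. Whether reads in this region were also lost or split was not tested. Among the neighbours, DDX39B had 5 to 13 reads per library and BAG6 had 6473 to 8961. HLA-F had 1 to 6 reads per library and HLA-G had no read. Any such loss would also lower the per-kilobase levels given below for the 7 members on chromosome 6, beside B2M and NLRC5.

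**Figure D5:**
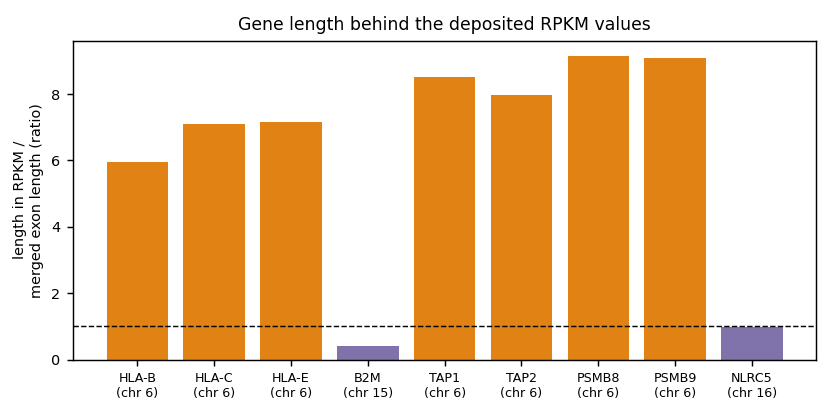
Ratio of the gene length implied by the deposited RPKM values to the merged exon length in GENCODE v29, for each member, with a dashed line at 1. The 7 members on chromosome 6 have ratios of 5.95 to 9.15, beside 0.42 for B2M and 0.99 for NLRC5.

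As CPM per kilobase of merged exon, B2M was highest in every group, with 237.4 ± 1.6 in KO Nutlin-3a, 287.3 ± 2.5 in KO DMSO, 473.1 ± 37 in WT Nutlin-3a and 503.7 ± 1.8 in WT DMSO libraries (SD, n = 2 each). HLA-C came after it in every group, at 95.4 ± 0.4 in KO Nutlin-3a, 89.6 ± 0.71 in KO DMSO, 247.4 ± 6.8 in WT Nutlin-3a and 228.2 ± 1.3 in WT DMSO libraries. NLRC5 was lowest in every group, at 1.74 ± 0.23 in KO Nutlin-3a, 2.26 ± 0.055 in KO DMSO, 3.36 ± 0.39 in WT Nutlin-3a and 4.5 ± 0.15 in WT DMSO libraries. The members between them changed places with genotype and treatment. In KO DMSO libraries TAP1 stood at 2.28 ± 0.27, next to NLRC5 at 2.26 ± 0.055, a gap smaller than the SD of TAP1. In WT Nutlin-3a libraries TAP1, at 47.1 ± 0.55, came next, above PSMB8 at 35.7 ± 0.042 and HLA-B at 34.4 ± 1.1, which lay close together. TAP2 exceeded TAP1 per kilobase in both DMSO groups, at 8.55 ± 0.15 in KO and 22.5 ± 1.1 in WT cells. In KO cells with Nutlin-3a, TAP1 was above TAP2, at 8.74 ± 0.042 and 7.45 ± 0.84, and HLA-E at 8.85 ± 0.39 was within its SD of TAP1.

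Markers of other cells were examined beside these results. The 6 fibroblast markers had the largest sum, 6656 to 7324 CPM in KO and 5317 to 6091 CPM in WT libraries. COL1A1, at 3218 to 4927 CPM, and COL3A1, at 1393 to 2597 CPM, carried nearly all of that sum. COL1A2 had 25 to 41 reads in KO libraries and 0 in both WT Nutlin-3a libraries. Under each treatment, 3 of the 6 fibroblast markers were called higher in KO cells and 2 lower. The 5 endothelial markers summed to 9.28 and 7.94 CPM in KO DMSO and 2.89 and 3.05 in WT DMSO libraries. With Nutlin-3a the sums were 7.06 and 8.32 in KO and 8.47 and 3.16 in WT libraries. The 5 Schwann or glial markers summed to 0.841 to 0.923 in KO and 1.91 to 3.09 in WT libraries. The summed level of 14 leukocyte markers was 13.3 and 11.4 CPM in KO Nutlin-3a, 11.4 and 10.1 in KO DMSO, 32.6 and 29.7 in WT Nutlin-3a, and 18.4 and 20.1 in WT DMSO libraries, so it was lower in KO cells, as were the class I genes. CD68 and LAPTM5 carried most of that sum, with CD68 at 8.04 to 9.45 CPM in KO and 12.4 to 14.1 CPM in WT libraries. LAPTM5, a lysosomal membrane gene of blood cells, had 23 and 17 reads in KO Nutlin-3a, 1 and 0 in KO DMSO, 499 and 402 in WT Nutlin-3a, and 136 and 123 in WT DMSO libraries. PTPRC, the pan-leukocyte marker CD45, went the other way, with 21 to 34 reads in KO libraries and 0 to 5 in WT libraries. LYZ was also higher in KO cells, with 15 to 36 reads in KO libraries and 5 to 13 in WT libraries. The summed level of 6 epithelial markers was 215 to 282 CPM in KO libraries and 581 to 675 CPM in WT libraries. KRT8 and KRT18 carried nearly all of that sum. EPCAM had 86 and 76 reads in KO Nutlin-3a, 56 and 46 in KO DMSO, 48 and 17 in WT Nutlin-3a, and 16 and 47 in WT DMSO libraries, and KRT14 had no more than 1 read in any library. Their part in the class I results was not tested. Reads of unrelated genes also appeared in single libraries, such as 268 COL1A2 reads in the second WT DMSO library against 13 in the first, and 78 KDR reads in the first WT Nutlin-3a library against 1 in the second. Without the 3 libraries that held such reads, all 9 members were called lower in KO cells under both treatments, but 3 of the 4 groups then held a single library, so the spread in that fit came from the KO DMSO pair alone.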

How the data were processed

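RNA-seq of 8 libraries was analysed from 2 deposited tables. The deposited counts are whole reads per gene and the deposited RPKM values are the same reads divided by gene length and library size, per the file headers. GRCh37/hg19 is the build in the submitters' processing notes, which list these tools without roles: HTSeq 0.8.0, Picard 2.9.4, TopHat2 2.1.1, SAMtools 1.5, FastQC 0.11.5, Bowtie2 2.2.9.0 and bcl2fastq. Neither the gene annotation nor the strand option of HTSeq is named there. Counts were filtered with filterByExpr, which kept 15879 of 25369 genes, and scaled by TMM. edgeR 4.0.16 in R 4.3.3 fitted 4 group means over 8 libraries (4 residual degrees of freedom, common biological coefficient of variation 0.0424), and robust two-sided quasi-likelihood F tests were adjusted by Benjamini-Hochberg at 0.05. SE is the size of the log2 fold change divided by the square root of F. Replicates of each group differed by more than counting noise. Alternatives were DESeq2 1.42.0, limma 3.58.1 on log2(RPKM + 0.1) and log2(RPKM + 1), other size factors, no filter, a threshold of 0.01, a replicate block, fits of 4 libraries and removal of libraries. The members, lists and tests were chosen with earlier results of these data known. Text names the 9 members, up to 3 called genes of each list with the smallest p in a comparison, and up to 3 of the nearest genes outside the members.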

Additional observations from a re-analysis of the deposited data

Results flagged for a closer look

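Of all tested genes, 27.5% were called for a difference between the Nutlin-3a responses, in either direction. HLA-B was the single member whose response to Nutlin-3a differed between the genotypes in the test of the difference itself. The log2 response was 1.95 in KO cells and 1.50 in WT cells, a difference of 0.45 (SE 0.11, edgeR adjusted p = 0.00617), and in both genotypes each Nutlin-3a library lay above each DMSO library. The call was lost in 4 of 18 alternatives: without the first KO DMSO library (0.37, adjusted p = 0.0588) and in limma-trend on log2(RPKM + 0.1) with (0.40, 0.0736) and without (0.40, 0.0939) a filter, and on log2(RPKM + 1) (0.06, 0.684). Despite that larger response, the KO libraries with Nutlin-3a, at 29.7 and 28.3 CPM, lay below the WT libraries with Nutlin-3a, at 55.8 and 53.3 CPM.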

How the results depend on the processing

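All 9 members were called lower in KO cells under both treatments in each of the 19 alternatives. In WT cells 6 to 9 members were called for Nutlin-3a, against 8 as reported. In KO cells the count was 6 as reported, 4 to 8 without 1 library, and 3 in limma-trend on log2(RPKM + 0.1) with no filter on low values. For the difference of the responses it was 1 as reported, 0 to 3 without 1 library, 2 with no filter on low counts, and in limma-trend 0 with a pseudocount of 0.1, filtered or not, and 2 with a pseudocount of 1; the cause was not tested. Over all genes, limma-trend on log2(RPKM + 0.1) called 6209 higher and 3747 lower for KO over WT under Nutlin-3a, where edgeR called 5190 and 4822. With upper-quartile factors in place of TMM, edgeR called 5630 higher and 4436 lower. The limma-trend fits used the RPKM values without TMM factors. A pseudocount also shrinks differences between low RPKM values, such as those of NLRC5 and most members on chromosome 6. The part of each was not tested. Responses near 0 turned sign. PSMB8 in KO cells was 0.01 without the 3 libraries holding reads of unrelated genes. As a difference of responses, HLA-C was 0.00 in limma-trend with a pseudocount of 0.1, TAP1 ran from -0.22 to 0.02 without 1 library, TAP2 from -0.00 to 0.24, PSMB9 from -0.16 to 0.24 and NLRC5 from -0.10 to 0.18; without the 3 libraries TAP2 was -0.05, PSMB9 -0.02 and NLRC5 -0.25. In a fit with the replicate block 9 members were called for each comparison of KO with WT, 6 for Nutlin-3a in KO cells, 8 in WT cells and 1 for the difference. Where 1 library was left out, the lone library of its group was taken to vary like the other groups. Deviations of same-numbered replicates correlated from -0.02 to 0.23, so the numbers were not taken as pairs. With 2 libraries a group, small changes such as those of HLA-C are limited by the replicates, and PSMB9 by its reads in KO cells.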
